A study of Drosophila melanogaster with 837 samples.

Results

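The esg-positive progenitor-like cells were a set of 83 single cells from a sort of muscle cells of the Drosophila melanogaster embryo. Members were 10.3% of the kept cells (exact 95% interval 8.25 to 12.6%). A cell was kept when at least 500 genes had 10 or more reads, which all but 28 of the sequenced cells met. The members were selected on measured values: at least 10 reads of esg, fewer than 10 of Ppn, fewer than 100 of Mhc, and not all of apolpp, FASN1 and prc at 10 or more reads. These 6 genes are therefore given as a description and carry no comparison. All other kept cells served for comparison.

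The study dissociated embryos of 19 to 20 h of a fly stock in which GFP tags Myosin heavy chain (Mhc-TAU-GFP) and sorted GFP-positive, DRAQ5-positive and DAPI-negative cells into single wells of 15 plates. Full-length cDNA was made by Smart-seq2, with added primers for the 7 Hox genes. All cells carried the same labels (Mhc-GFP+, somatic muscle, pooled embryos) and no animal is named, so they form 1 sample. The plate was the unit of spread, which is technical, and no test between conditions was possible.

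Escargot (esg) encodes a zinc finger transcription factor of the Snail family, which includes Snail (sna) and holds cells in an undifferentiated state by repressing genes of differentiated epithelia. In the embryo esg is known from imaginal primordia, tracheal tips and the adult midgut progenitors, which lie scattered in the midgut and later found the adult gut. In the adult midgut it marks intestinal stem cells and enteroblasts, cells in which Notch signaling decides between the absorptive and the enteroendocrine fate.

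Members came from all 15 plates, with 2 to 12 per plate. Their share of a plate's kept cells was 10.2% ± 5.20 (SD, n = 15 plates), from 4.08% on plate 1 to 21.1% on plate 13. A member had a median of 519611 reads (111318 to 3155148) and 1437 genes with at least 10 reads, against 796552 reads and 1684 genes in other kept cells. Members thus had fewer reads in total. Outside ribosomal RNA the medians were 361907 reads in members and 407766 in other kept cells. Levels are given as CPM, counts scaled to 1000000 reads outside ribosomal RNA, and detection means at least 10 reads in a cell. For comparison at equal depth, each cell was thinned at random to 106282 reads outside ribosomal RNA, for which 7 members were too shallow and 76 remained. No doublet caller was run.

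The labelled tissue was checked first. Of 17 genes of contractile muscle measured, 16 were not part of the rule. Since the rule kept the contractile cells (Mhc at 100 or more reads) out of the set and among the cells compared with, lower levels of these genes are in part fixed by the selection. Beside all other kept cells 15 of the 16 were at least 2-fold lower, as were 19.8% of all tested genes, and beside the cells outside the classes that the rule removes 0 of the 16 were. Detection in members ran from 0% for Prm (paramyosin), 1.20% for wupA (troponin I) and 6.02% for Mlc2 (myosin light chain) to 13.3% for bt (projectin), with 14 of the 16 genes in this range. The other 2 were more frequent in members than in other kept cells: Tm1 (tropomyosin) was detected in 57.8% against 44.9%, and Zasp52, a Z-disc gene, in 38.6% against 21.5%, although the mean CPM of both was lower in members (log2 ratios -1.25 and -1.36). The summed level of the list, which holds Mhc, had a median of 294.3 CPM over members (0 to 35564) and 94.15 CPM over others (0 to 370739), so its median was higher and its highest value lower in members. Mef2, the transcription factor of the muscle lineage, was detected in 44.6% of members and 43.3% of other kept cells. Mef2 belongs to a list of muscle progenitor genes, of which 7 were tested. None of the 7 was higher and 3 were lower (42.9%, beside 19.8% of all tested genes). Beside the cells outside the classes that the rule removes 2 of the 7 were lower (htl and zfh1), as were 7.55% of all tested genes. Mhc itself had 10 to 99 reads in 3 members and a highest value of 91 reads, below the limit of the rule. The members thus carried the label of somatic muscle, with most contractile genes detected in few of them.

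The boundary of the rule held few cells. Of the members, 77 had at least 50 reads of esg (67 to 4203), 2 had 26 reads and 4 had 16 or 17 reads. Just outside, 2 cells that met the other conditions had 5 to 9 reads of esg and 7 had 1 to 3 reads, and the rest had none. A further 11 kept cells had at least 10 reads of esg but were left out, 4 by Ppn, 3 by Mhc and 4 by the lipid genes, and sna was detected in 6 of them. Among members, 14 cells had 1 of apolpp, FASN1 and prc at 10 or more reads and 1 cell had 2 of them. None of the 28 cells that missed the gene limit had 10 reads of esg, which allows a share of up to 10.7%.

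The gene that chose the members, esg (2L, 15333866 to 15336138, BDGP6), had a lowest CPM of 110.07, a median of 1528 and a highest of 8511 among them. On average over 14 plates it stood at 1898 CPM ± 803.4 (SD). Its level did not follow depth (Spearman rho -0.03 over 83 members that share the sort and the protocol).

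4 further markers were not used by the rule, but they were named with earlier results of these data known. Each was far more frequent in members than elsewhere, which is a description and no independent support. sna (2L, 15476593 to 15478260), the Snail gene known from mesoderm formation, was detected in 78.3% of members (65 cells, interval 67.9 to 86.6%) and in 1.10% of other kept cells. Its CPM among members ran from 0 over a median of 1015 to 11204. The zinc finger homeodomain gene zfh2 (4, 501810 to 540874) was detected in 72.3% of members (61.4 to 81.6%) and 3.44% of others, with a median of 291.9 CPM and a highest of 6578 in members.

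Sox100B (3R, 31065253 to 31083407), a SoxE gene with a role in adult gut stem cell differentiation, was detected in 57.8% of members (46.5 to 68.6%) and 2.20% of others. exex (3L, 7948186 to 7951563), the fly Hb9 homeodomain gene best known from motoneurons, was detected in 50.6% of members (39.4 to 61.8%) and 1.24% of others. Both genes were present in some members and missing from the rest, and their medians in members were 94.98 and 39.93 CPM. At equal depth the shares in members were 80.3% for sna, 68.4% for zfh2, 50% for Sox100B and 47.4% for exex, against 1.23%, 1.99%, 1.99% and 0.92% of other kept cells. The share of sna was higher and the other 3 were lower than before thinning. The thinned shares leave out the 7 shallowest members, so the cells counted are not the same.

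**Figure D1:**
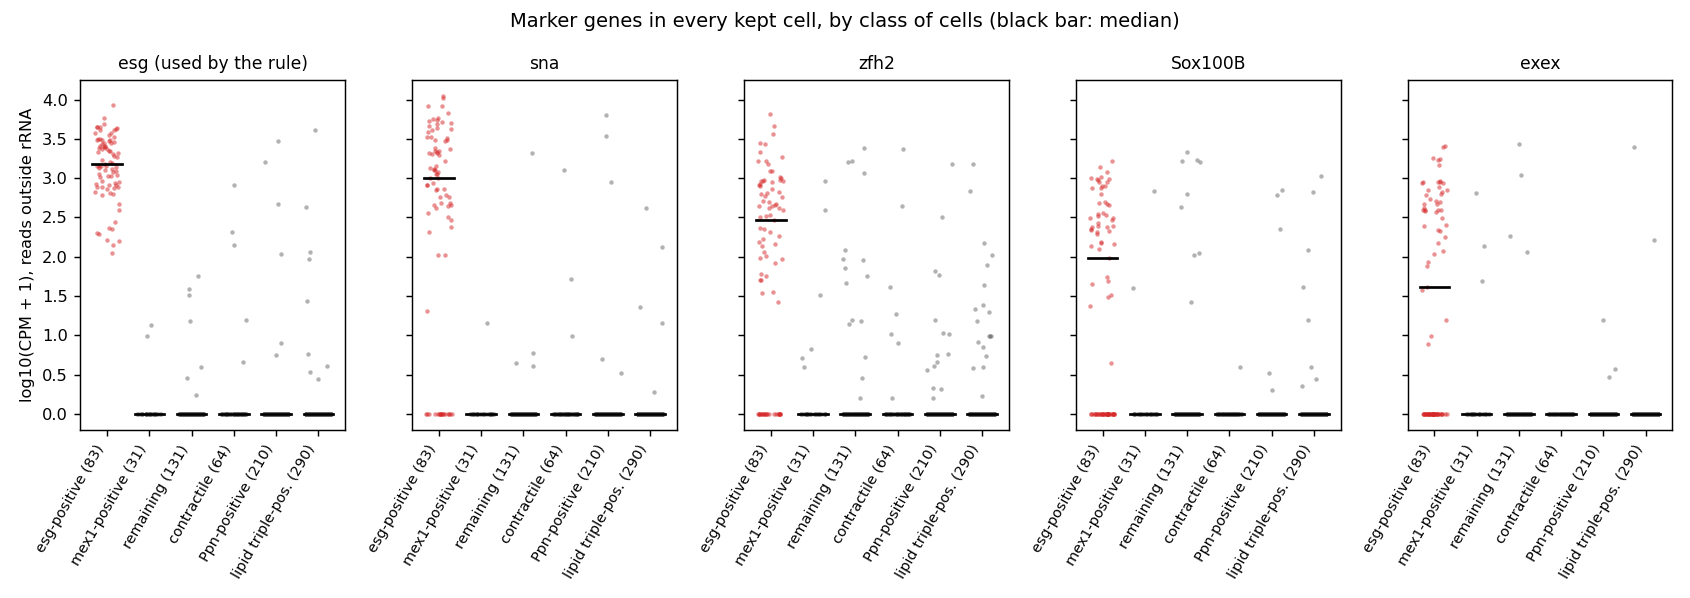
Level of esg and of 4 markers in every kept cell, as log10(CPM + 1), with cells grouped into the esg-positive set (83 cells) and 5 other classes; each point is 1 cell and the black bar is the class median. The median of sna in the esg-positive set is 1015 CPM, whereas the median of all 4 markers is 0 in every other class.

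The spread over plates was wide but the direction was shared. The averages over plates with at least 3 members were 1856 CPM ± 913 (SD, n = 14 plates) against 22.2 ± 41.2 in other kept cells for sna. For zfh2 they were 764.8 ± 922.5 against 21.6 ± 39.3, for exex 355.8 ± 347.8 against 9.44 ± 22.7, and for Sox100B 283.9 ± 152.8 against 18.5 ± 18.8. Members had the higher mean on 14 of 14 plates for zfh2 and Sox100B and on 13 of 14 for sna and exex.

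Most members carried several of these genes together. All 4 were detected in 14 members, 3 in 37, 2 in 22, 1 in 4 and none in 6. The 6 cells without any had a median of 127589 reads outside ribosomal RNA (71320 to 1146700), against 361907 for all members. The 4 members with 1 marker had a median of 678646. Of the 6 cells, the deepest had 1652 reads of abd-A and also carried Abd-B. Another carried Ubx, abd-A and Abd-B, and another abd-A. A further cell had 91 reads of Mhc, and another carried apolpp and prc. fkh had 63 reads in the shallowest of the 6 and 0 in the rest. Whether depth accounts for the missing markers was not tested. Of the other kept cells 93.8% had none of the 4 markers, and 2, 3 and 4 of them were detected in 6, 2 and 1 cells. Within members the markers combined about as often as their single frequencies give: sna and zfh2 met in 50 cells (46.99 if independent), and exex and Sox100B in 26 cells (24.3 if independent).

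Across 8811 genes with 10 reads in at least 5 kept cells, 5.18% were at least 2-fold higher in members than in other kept cells with the same direction on at least 12 of 14 plates. The same rule called 19.8% (1741 genes) at least 2-fold lower. The median log2 ratio over all tested genes was 0.30, and 0.59 with CPM over all reads, so ratios are to be read against that shift. The conditions on Ppn, Mhc and the lipid genes removed whole classes of cells from the set, and genes of these classes are among the lower genes. The 4 markers passed on the higher side.

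The forkhead gene fkh, the fly FoxA factor of the gut and salivary gland, was detected in 86.7% of members and 6.89% of others. Its mean was 796.1 CPM ± 379.4 (SD, n = 14 plates) in members and 54.98 ± 36.31 in others. fkh had the largest difference in detection at equal depth (86.8% against 6.13%), and members were higher on 14 of 14 plates. hdc (headcase), known from imaginal cells and adult progenitors, was detected in 95.2% of members and 28.8% of others, with means of 1625 and 325.8 CPM. betaTub56D, a beta tubulin, was detected in 96.4% of members and 23.3% of others, and its mean of 3278 CPM was 3.95 log2 units above the others.

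Several higher genes act in signaling. Traf4, an adaptor of the JNK pathway, was detected in 75.9% of members and 4.96% of others. The tyramine receptor TyrR was detected in 80.7% and 3.99%. The integrin subunit Itgbn (beta nu integrin), known from the midgut, was detected in 75.9% and 9.92%. The zinc finger gene peb (hindsight), a regulator of midgut and enteroblast differentiation, was detected in 78.3% and 6.75%.

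The remaining named genes were of mixed function. Tet, the fly member of the dioxygenase family that acts on methylated nucleic acids, had a mean of 1055 CPM in members and 79.8 in others. The uncharacterised CG34232 had means of 1831 and 104.2 CPM, and GAPcenA, which by name is a GTPase activating protein, had means of 1173 and 57.7 CPM. The RNA-binding protein gene cpo, the transcription factor apt, the F-box gene Ppa, the cytochrome P450 gene Cyp9c1, and CG42238 and CG45060 completed the named genes outside the Notch targets. Their log2 ratios ran from 2.99 for apt to 5.07 for CG45060, and all but apt were higher on 14 of 14 plates.

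**Figure D2:**
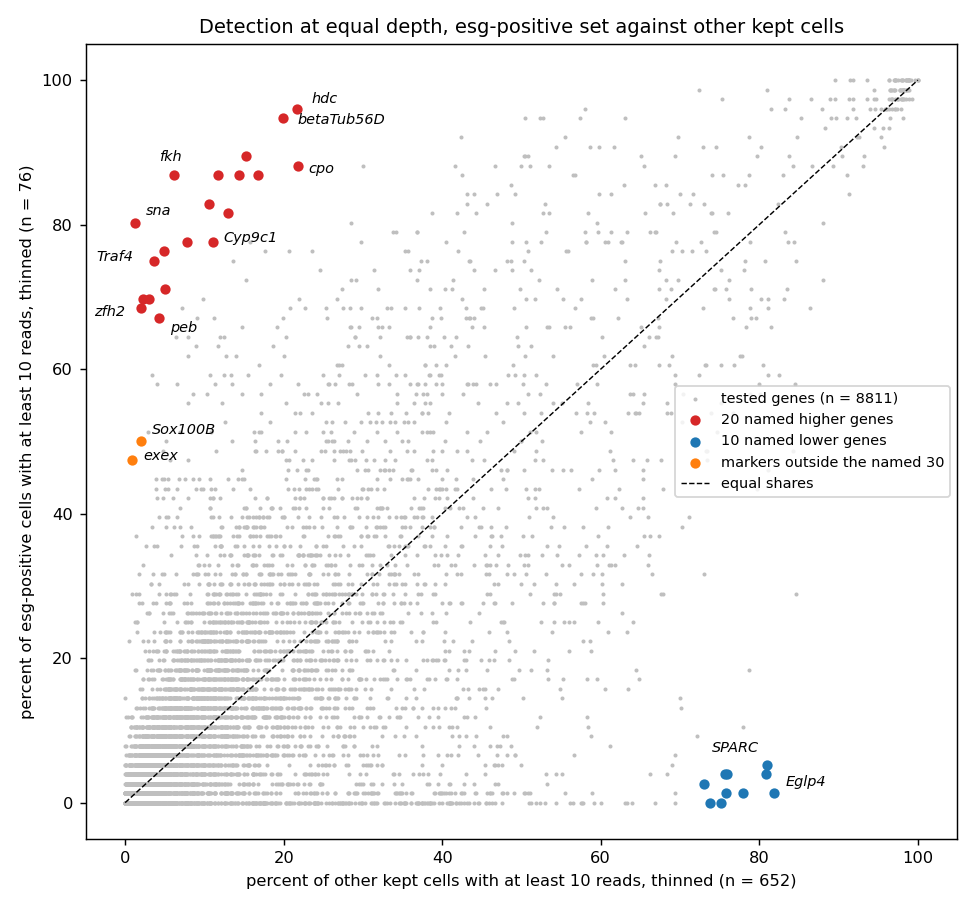
Percent of cells with at least 10 reads after thinning to equal depth, for other kept cells (x axis) and esg-positive cells (y axis, 76 cells); each grey point is 1 of 8811 tested genes and the dashed line marks equal shares. The 20 named higher genes lie at 67.1% of members or more, and the 10 named lower genes at 5.26% or less.

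The genes whose level ran most alike with esg are given as a description only, since esg chose the members and a correlation with it over all kept cells restates that choice. sna came first with a Spearman rho of 0.80, followed by TyrR (0.73), Traf4 (0.69), CG45060 (0.65), fkh (0.64), E(spl)m3-HLH (0.64), exex (0.64), zfh2 (0.63), peb (0.60) and Sox100B (0.59). The points share the sort and the protocol. Within the 83 members, rho with esg was 0.52 for sna and lay between 0.17 (zfh2) and 0.39 (CG45060) for the other 9.

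Of 20 tested genes known from adult midgut progenitors and intestinal stem cells, 9 were at least 2-fold higher in members and 3 were lower, beside 5.18% and 19.8% of all tested genes. The median log2 ratio of the list was 2.25. Besides fkh, hdc, Tet and the markers zfh2 and Sox100B already given, the higher genes were N, Egfr, the phosphatase gene Mkp3 and Sox21a. Sox21a, a factor of enteroblast differentiation, was detected in 20.5% of members (12.4 to 30.8%) and in 0.275% of others. The lower genes were Pdp1, Tsp2A and nub.

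GATAe, the GATA factor of the endodermal midgut, was detected in 53.01% of members (41.7 to 64.1%) and 6.20% of others. Its log2 ratio was 3.26 with members higher on 11 of 14 plates, so it did not meet the plate condition. The intestinal factor cad was detected in 31.3% and 8.26%, and the Notch ligand gene Dl in 13.3% and 2.20%, also without meeting that condition. The growth regulator Myc was detected at nearly equal shares, 83.1% and 83.3%. esg-positive cells were therefore rich in some genes of this list while others were spread over the whole data set.

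Genes of the differentiated midgut were uneven. Of 19 tested genes of enterocytes and midgut differentiation, 1 was higher (5.26%) and 5 were lower (26.3%), near the 5.18% and 19.8% of all tested genes. Myo31DF, a myosin I of the enterocyte brush border, was the higher gene, detected in 75.9% of members and 27.1% of others. The ferritin genes Fer1HCH and Fer2LCH, which are widely used, were each detected in 89.2% of members and in 84.2% and 85.1% of others. The metallothionein gene MtnA was detected in 32.5% and 32.4%, and its mean was lower in members. At 0% of members, where 83 cells allow up to 3.61%, were 11 genes, found in 0.964 to 5.51% of others. They included the digestive enzyme genes Bace, alphaTry and Mal-A1, at 1.24 to 1.65% of others. In the cells outside the classes that the rule removes, the 11 genes ran from 1.23% (Npc2f) to 19.8% (CG34284 and CG14292). Beside those cells 3 of the 19 tested genes were lower (CG34284, CG14292 and MtnA), as were 7.55% of all tested genes. Myo31DF was the 1 higher gene there, beside 2.44% of all tested genes. The summed level of the list had a median of 5094 CPM over members and 2537 over others. mex1, a midgut gene, was detected in 3 members.

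In the smooth septate junction list, whose junction seals differentiated midgut cells, 4 of 6 tested genes were lower. This is 66.7%, beside 19.8% of all tested genes. Ssk and Tsp2A, both needed to build it, had at most 2 and 7 reads in any member and reached 10 reads in none, against 22.04% and 10.9% of other kept cells. mesh was detected in 1 member (1.20%) and 9.64% of others, and the gene listed as CG13704 in the same shares. These were the 4 lower genes, while cora and dlg1 of the same list were not called. Among 11 tested genes of pleated septate junctions, which occur in ectodermal epithelia, 1 was lower (bou, 9.09%, beside the same 19.8%) and none was higher.

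Enteroendocrine genes gave few calls. Of 13 tested, none was higher and 2 (CCHa2 and ITP, 15.4%) were lower, not above the 5.18% and 19.8% of all tested genes. The homeodomain genes mirr (32.5% of members, 18.2% of others) and Ptx1 (13.3% and 3.99%) of this list were more frequent in members without meeting the plate condition. In the cells outside the classes that the rule removes, mirr was less frequent than in members (11.1%) and Ptx1 was not (16.05%). Of the 31 mex1-positive cells without esg, 8 had Ptx1. pros, which specifies enteroendocrine cells, was detected in 3.61% of members and 3.99% of others. dimm, a basic helix-loop-helix gene of secretory peptide cells, was detected in 9 members (10.8%) and in 0.413% of others. The neuropeptide processing gene 7B2 was detected in 19.3% of members and 3.31% of others, higher on 11 of 14 plates. The summed level of the list had a median of 411.4 CPM over members and 112.7 over others.

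**Figure D3:**
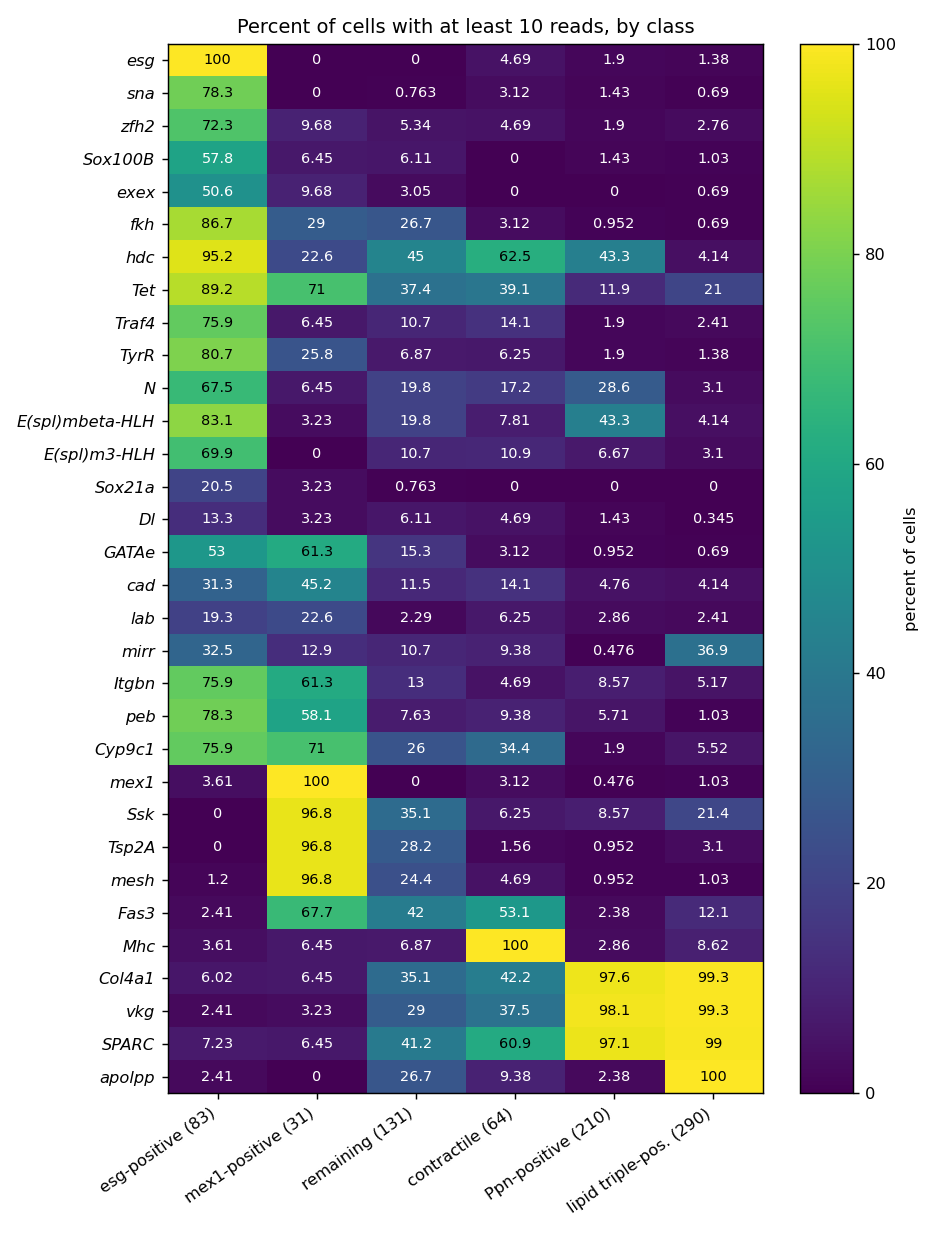
Percent of cells with at least 10 reads for 32 genes (rows) in the esg-positive set and 5 other classes of kept cells (columns, number of cells in brackets); each cell of the grid prints its percent. fkh reaches 86.7% in the esg-positive set, whereas Ssk, Tsp2A and mesh reach 96.8% in the mex1-positive class and at most 1.20% in the esg-positive set.

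Notch pathway genes were among the clearest. In this pathway the ligand Delta on a neighbouring cell activates the receptor Notch, which switches on the E(spl) repressor genes through Su(H). The receptor gene N was detected in 67.5% of members (56.3 to 77.4%) and 14.9% of others. Its targets E(spl)mbeta-HLH and E(spl)m3-HLH were detected in 83.1% and 69.9% of members and in 18.6% and 6.06% of others. Their means were 1086 CPM ± 653.4 and 1060 ± 718.6 (SD, n = 14 plates), against 102.4 ± 60.2 and 35.1 ± 25.1. Both were higher in members on 14 of 14 plates.

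In all, 5 of 19 tested Notch pathway genes (26.3%) were higher in members, namely these 3, numb and gro, beside 5.18% of all tested genes. The ligand gene Ser was the 1 lower gene (5.26%, beside 19.8%). numb, an inhibitor of Notch, was detected in 54.2% of members and 9.78% of others. gro, the corepressor that E(spl) proteins recruit, was detected in 43.4% and 22.04%. E(spl)mgamma-HLH was detected in fewer cells, 28.9% of members and 0.826% of others, and all 24 of these members also carried E(spl)mbeta-HLH. Dl and neur, which act in the signal-sending cell, were detected in 13.3% and 33.7% of members and did not meet the plate condition.

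Of 17 tested EGFR pathway genes, 5 were higher in members (29.4%, beside 5.18% of all tested genes) and 3 were lower (17.6%, near the 19.8% of all tested genes). The ligand gene spi was detected in 65.1% of members and 22.6% of others, and the receptor gene Egfr in 75.9% and 37.9%. The adaptor gene drk was higher as well. The feedback inhibitors sty and Mkp3 had means of 1273 and 713.4 CPM in members and 347.4 and 157.6 in others. The lower genes were rho, which activates the ligand, the ligand gene vn and the transcription factor gene pnt. In the JAK-STAT pathway 1 of 7 genes was higher (14.3%, beside 5.18%), the feedback inhibitor Socs36E (78.3% of members, 42.98% of others). The ligand gene upd2 was detected in 11 members and 0.275% of others, and members were higher on 4 plates only.

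Other pathways showed fewer calls. In the Wnt list 1 of 12 genes was higher (arm, the fly beta-catenin, which also sits at cell junctions) and 3 were lower (wg, Wnt4 and Notum). In the Dpp list none of 11 was higher and dpp was lower. In the Hippo list 1 of 12 was higher, the apoptosis inhibitor Diap1. In the Hedgehog list none of 5 was called. Shares on the higher side were 8.33% for Wnt and for Hippo, near the 5.18% of all tested genes. On the lower side they were 25% for Wnt and 9.09% for Dpp, beside 19.8% of all tested genes.

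Cell cycle genes as a list did not stand apart. Of 30 tested, 4 were lower (RnrS, Cdk2, CycB and CycE, 13.3%) and 1 was higher (3.33%), both below the 19.8% and 5.18% of all tested genes. The summed level had a median of 832.6 CPM over members and 716.9 over others. The A cyclin gene CycA was detected in 10.8% of members and 7.16% of others, and Mcm6, of the replicative helicase, in 16.9% and 8.40%. CycB and CycE, the B and E cyclins, were not detected at 10 reads in any member, which allows up to 3.61% of cells, and were detected in 3.44% and 3.17% of others. The higher gene was dap, the fly p21/p27 type inhibitor of cyclin E kinase, with 31.3% of members (21.6 to 42.4%) and 8.95% of others. The phosphatase gene stg was detected in 32.5% of members and 43.9% of others.

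Of 6 tested genes of the neuroblast list 2 were higher (33.3%, beside 5.18% of all tested genes). These were insc and brat, which act in asymmetric cell division. insc was detected in 49.4% of members and 6.75% of others. mira, which encodes an adaptor of the same process, was detected in 22.9% and 1.65% without meeting the plate condition. svp and grh of the same list were lower (33.3%, beside 19.8% of all tested genes). The neuronal gene elav was detected in 19.3% of members and 37.1% of others, and none of 11 tested neuronal genes was called in either direction.

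Among lists with 5 or more tested genes, the subunits of the vacuolar proton pump had the largest share of higher genes. This V-ATPase acidifies lysosomes and, in gut epithelia, the lumen. Of 17 tested subunit genes 12 were higher (70.6%, beside 5.18% of all tested genes) and none was lower (beside 19.8%). The median log2 ratio was 1.99, beside 0.30 over all tested genes. Vha68-2 had a mean of 2469 CPM in members and 346.6 in others, Vha26 1952 and 332.6, and VhaSFD 1419 and 236.7. The summed CPM of all 17 genes had a median of 14711 over members (2328 to 79858) and 2858 over other kept cells (2.66 to 107584), so the ranges overlapped. Vha14-1, Vha16-1, Vha68-1, Vha100-1 and Vha100-2 were not called. Beside the cells outside the classes that the rule removes, 3 of the 17 genes were higher, as were 2.44% of all tested genes.

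Of 27 tested adhesion genes 3 were higher (11.1%) and 9 were lower (33.3%), beside 5.18% and 19.8% of all tested genes. The integrin subunit genes scb (68.7% of members, 8.68% of others) and mew (79.5% and 30.2%) were higher, as was arm. A further integrin subunit gene, if, was lower (4.82% and 14.5%), and mys was not called (80.7% and 58.3%). The laminin genes LanA, LanB1 and LanB2 were lower, with means of 134.9, 238.3 and 284.4 CPM in members against 1599, 1011 and 1104 in others. Fas3, an adhesion protein of visceral muscle and epithelia, was detected in 2.41% of members and 20.7% of others. Beside the cells outside the classes that the rule removes, LanA, if and Fas3 were lower as well, whereas LanB1 and LanB2 were not called.

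**Figure D4:**
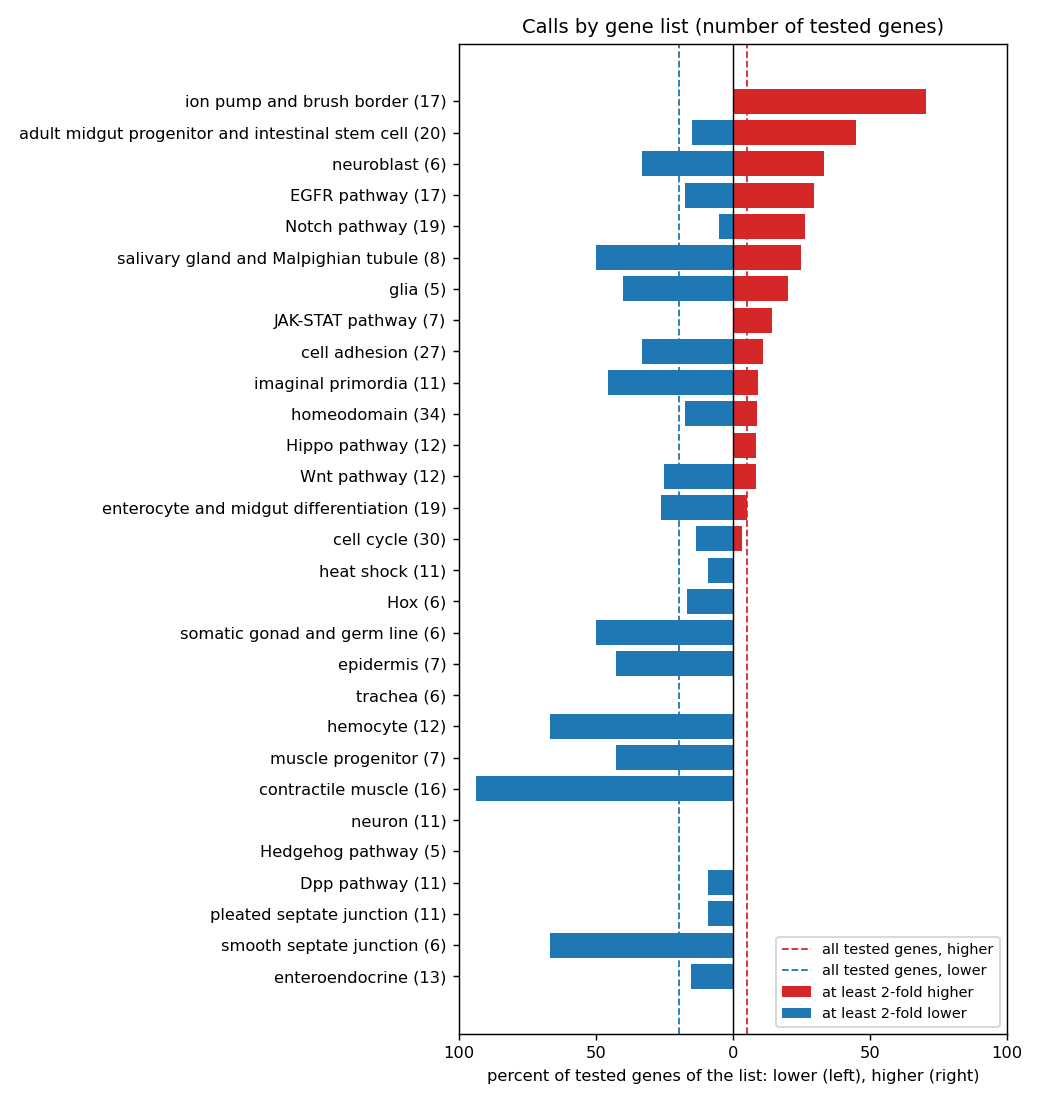
Percent of the tested genes of each list that were at least 2-fold higher (right, red) or lower (left, blue) in esg-positive cells than in other kept cells, for lists with 5 or more tested genes (number in brackets); dashed lines mark the 5.18% and 19.8% of all tested genes. The proton pump list, drawn as ion pump and brush border, reaches 12 of 17 higher, and the contractile muscle list, whose cells the rule kept out of the set, 15 of 16 lower.

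The 10 named lower genes encode mostly matrix and secreted proteins. The rule left the Ppn-positive and lipid-positive cells among the cells compared with. Lower levels of these genes are therefore in part fixed by the selection. The type IV collagen genes Col4a1 and vkg had means of 27067 and 10841 CPM in other kept cells and 88.2 and 62.8 in members. In the cells outside the classes that the rule removes their means were 1879 and 856 CPM. All 10 genes were called lower beside those cells as well. SPARC, a collagen-binding matrix protein, was detected in 7.23% of members, 80.7% of others and 34.6% of the cells outside those classes. Glt, Tig, the chitinase-like growth factor genes Idgf2 and Idgf6, the aquaporin-like Eglp4, and CG14629 and CG8157 were detected in 2.41 to 6.02% of members and 73.8 to 81.5% of others. In members with such reads the source of those reads was not tested.

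Markers of other cell types were mixed. The rule kept the Ppn-positive and lipid-positive cells out of the set, so low levels of hemocyte and fat body genes are in part fixed by the selection. Of 12 tested hemocyte genes 8 were lower beside all other kept cells (66.7%, beside 19.8% of all tested genes). Beside the cells outside the classes that the rule removes 3 were lower (srp, vkg and Col4a1), as were 7.55% of all tested genes. Of 13 measured, 8 were detected in 0% of members, among them eater, NimC1 and Hml, and Ppn of the rule. The scavenger receptor gene crq was instead more frequent in members (22.9%) than in others (14.05%) without being called. srp, the GATA factor of hemocytes and fat body, was detected in 16.9% of members and 75.2% of others. The summed level of the hemocyte list had a median of 20.2 CPM over members (0 to 20290). The fat body gene Lsd-1 was at 0% of members and 35.1% of others. Of 5 tested glial genes, loco was higher (43.4% of members, 26.3% of others), Gs2 and Eaat1 were lower, and moody (26.5% and 13.1%) was not called. The glial list thus had 20% higher and 40% lower genes, beside 5.18% and 19.8% of all tested genes. Of the genes of imaginal primordia, hth was lower (9.64% of members, 45.5% of others), as were ct, wg, vn and nub, and only hdc was higher among 11. Its shares were 9.09% higher and 45.5% lower genes, beside the same 5.18% and 19.8%. In the salivary gland and Malpighian tubule list, 2 of 8 tested genes were higher, fkh and Vha55 (25%, beside 5.18%). Lower were 4 (50%, beside 19.8%), among them sage, a salivary gland gene, and ct and CrebA.

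Hox genes were detected in 24 members (28.9%, interval 19.5 to 39.9%) and in 38.02% of other kept cells. At equal depth the shares were 19.7% and 22.2%. lab, the most anterior Hox gene in the chromosome's order and a gene of the embryonic midgut, accounted for most: 16 members (19.3%, 11.4 to 29.4%), with up to 1087 reads, against 3.72% of others. In the mex1-positive cells without esg, lab was detected in 7 of 31 cells (22.6%, 9.59 to 41.1%), an interval that holds the share of members, and any Hox gene was detected in 29.03%. abd-A and Abd-B were detected in 4 members each, Scr, Antp and Ubx in 1 each, and Dfd in none, which allows up to 3.61%. Of 6 tested Hox genes 1 was called, Antp, at least 2-fold lower (16.7%, near the 19.8% of all tested genes). Antp was detected in 1.20% of members and 13.9% of others. 2 members carried more than 1 Hox gene, whereas 76 others (10.5%) did. Of the 16 members with lab, 10 came from plates 13 and 14, where 6.67% and 13.6% of other kept cells also had lab, and the part of the plate in this count was not tested.

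Of 34 tested homeodomain genes, 3 were higher in members (zfh2, exex and vnd, 8.82%) and 6 were lower (17.6%), near the 5.18% and 19.8% of all tested genes. vnd, a neural patterning gene, was detected in 31.3% of members and 2.48% of others. zfh1, a factor of mesoderm and hemocytes, was detected in 3.61% of members and 66.3% of others. Several other homeodomain genes were present in a minority of members without being called, among them mirr (32.5%), cad (31.3%), dve (28.9%), Lim3 (14.5%) and Ptx1 (13.3%).

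These minority genes divided the members. The following pairs were chosen after the values of 1176 pairs among 49 genes had been seen, so they are a description. The counts given as if independent pool all plates and take no account of differences between them. mirr was detected in 27 members, cad in 26 and lab in 16. mirr met cad in 1 cell (8.46 if independent) and lab in 1 cell (5.20 if independent). All 12 members with Lim3 also had mirr (3.90 if independent). At equal depth mirr met cad in 0 cells (6.63 if independent) and lab in 0 cells (3.16), and all 11 cells with Lim3 had mirr.

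The subsets came from several plates, mirr from 12, cad from 10 and lab from 6, but their shares differed between plates. On plates 5 and 10 cad was detected in all 4 and all 3 members, and mirr in 0. The part of the plate in the pair counts was not tested. In all, 60 of 83 members carried at least 1 of the 3 genes, 51 carried exactly 1 and 9 carried more. The 9 cells with more came from plates 13 and 14 alone, and in 7 of them cad met lab (5.01 if independent over all plates). On these plates both genes were frequent: cad in 7 of 12 and 5 of 7 members, lab in 5 of 12 and 5 of 7. The median depth was 326113 reads outside ribosomal RNA in members with mirr, 471141 with cad, 586267 with lab and 221105 in the 23 members with none, so the subsets also differed in depth. In other kept cells the same pairs were not alike: 4 of 39 cells with Lim3 had mirr (7.09 if independent), and mirr met cad in 9 cells (10.9 if independent).

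exex followed these subsets in part. It was detected in 12 of the 16 members with lab, 17 of the 27 with mirr and 9 of the 26 with cad. Ptx1 met lab in 6 of 11 cells (2.12 if independent) and exex in 9 of 11 (5.57 if independent). vnd was detected in 12 and dve in 13 of the 27 members with mirr. By contrast sna and fkh were common in all of them: sna in 22, 21 and 14, and fkh in 23, 24 and 16 of the members with mirr, cad and lab. Dl met Sox21a in 6 cells (2.25 if independent).

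**Figure D5:**
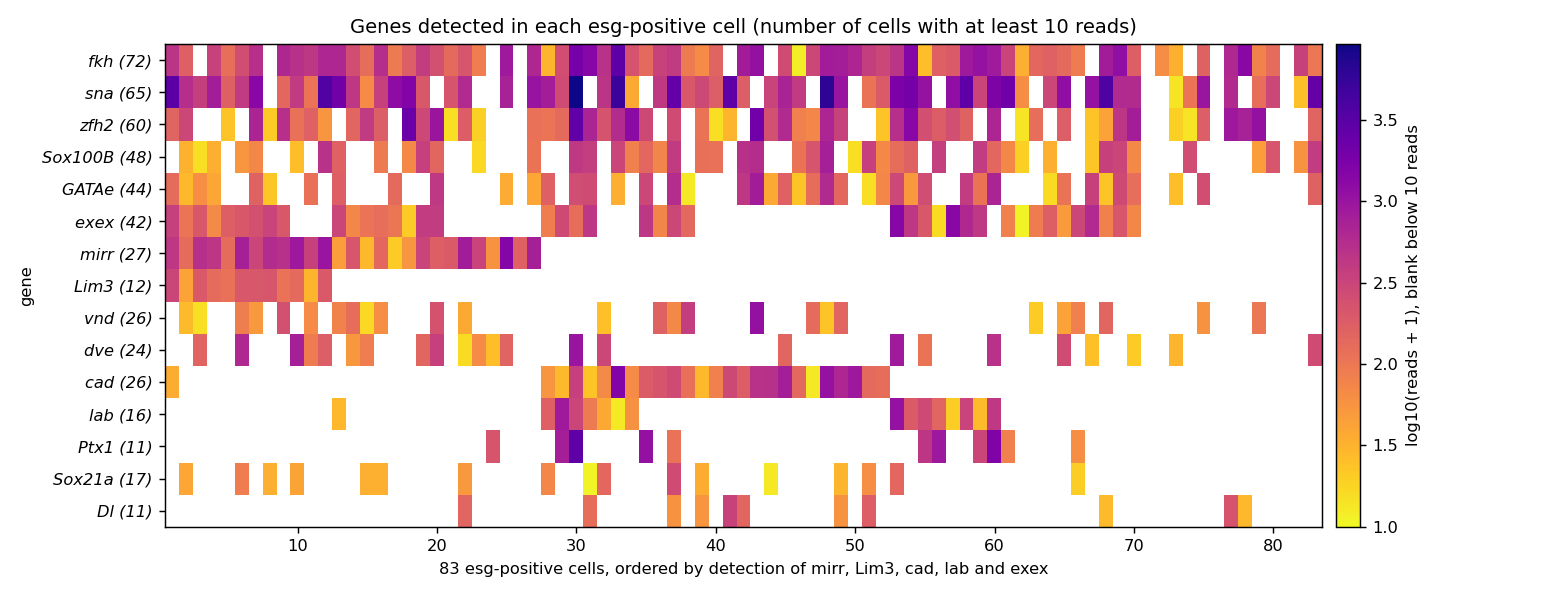
Reads of 15 genes in each of the 83 esg-positive cells as log10(reads + 1), blank below 10 reads; columns are cells ordered by detection of mirr, Lim3, cad, lab and exex, and the number of cells with each gene is given in brackets. All 12 cells with Lim3 lie within the 27 cells with mirr, and 1 cell has both mirr and cad.

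The members were last set beside the other kept cells that were neither contractile, Ppn-positive nor positive for all lipid genes. These were 20.02% of kept cells, and 31 of them had mex1. This removes the classes that the rule excludes. The median depth was 325120 reads outside ribosomal RNA in these cells and 361907 in members. Here 2.44% of the 8811 genes were at least 2-fold higher in members and 7.55% at least 2-fold lower. Of the genes higher against all other kept cells, 42.1% were also higher here. All 20 named higher genes stayed in this group, among them sna (0.62% of these cells), fkh (27.2%), Traf4 (9.88%) and E(spl)m3-HLH (8.64%).

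Several lists held fewer higher genes here. Of the 9 higher midgut progenitor genes 7 remained higher (20 tested), and of the 5 EGFR genes 3 (17 tested). Of the 12 proton pump genes 3 remained higher (Vha26, Vha68-2 and VhaSFD, 17 tested). These counts stand beside 2.44% of all tested genes. The 4 lower genes of the smooth septate junction list were lower here too (6 tested), beside 7.55% of all tested genes. Of the 5 Notch genes 3 remained higher (N, E(spl)mbeta-HLH and E(spl)m3-HLH), whereas numb and gro were not called here. neur, not called against all other kept cells, was called higher here. None of the 16 contractile genes was lower here. The mex1-positive cells shared some genes with members, namely GATAe (61.3%), Itgbn (61.3%), peb (58.1%), Cyp9c1 (70.97%), cad (45.2%) and lab (22.6%). They differed in the junction genes Ssk, Tsp2A and mesh (96.8% each), and in E(spl)m3-HLH (0%), N (6.45%), hdc (22.6%) and sna (0%). With 31 cells in that class, a count of 0 allows up to 9.68%.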

How the data were processed

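Single-cell libraries (Smart-seq2, 75 bp single end) were pseudo-aligned by the authors to the BDGP6 cDNA with kallisto (the submitters' notes list kallisto 0.43.0 and R 3.5.1). The authors deposited estimated counts for 8862 genes of all cells (whole numbers, not normalized) and transcript files holding TPM beside the estimated counts. Counts of near-identical copies are divided by an estimate. Of the table's values, 99.95% lay within 0.51 reads of the summed cell files. Dfd was taken from the cell files. Coordinates are those of the Ensembl annotation of BDGP6, and esg was placed by symbol.

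The members, gene lists and comparisons were chosen with earlier results of these data known. Of 837 cells, 809 were kept, of which 83 met the rule and 726 did not. The 726 were 64 contractile, 210 Ppn-positive, 290 lipid-positive, 31 mex1-positive and 131 remaining cells. CPM used reads outside 11 ribosomal RNA features. A gene was called higher or lower when the ratio of plate-averaged mean CPM was at least 2-fold and at least 80% of 14 plates with 3 or more members had the same direction, which 456 of 8811 genes met as higher. No p-value was computed, since all cells form 1 sample. Shares carry exact Clopper-Pearson 95% intervals, which, like the limit of 3 counts for a share of 0, cover counting error only, since reads without molecular identifiers are not independent molecules. Named genes were the 5 markers, the 6 rule genes, and the 20 higher and 10 lower called genes with the largest difference in detection at equal depth (106282 reads, 81 kept cells left out), plus the 10 genes most alike with esg. List genes were named by the size of that difference, and others where the text says so. The comparison was also run on simulated counts. These held changes larger than 2-fold only, in widely detected genes, so they do not cover 2-fold changes or rare genes. Python 3.11.15, numpy 2.4.6, pandas 2.3.3 and scipy 1.17.1 were used.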

Additional observations from a re-analysis of the deposited data

Results flagged for a closer look

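Reads on ribosomal RNA features were left out of the CPM levels and of thinning. They did enter the total reads and the alternative with CPM over all reads. They took a median of 25.5% of a member's reads and 36.4% in other kept cells, and the member median was lower on 13 of 15 plates. Single cells ran from 1.49 to 91.2% in members and from 1.28 to 95.8% in other kept cells, so the ranges overlapped. At the median depth of members 3 reads would be 0.000577%, a floor of detection that does not bear on this difference. What sets the share was not tested.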

How the results depend on the processing

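The share of kept cells in the set stayed between 9.52% and 11.1% under other esg limits, cell filters and thinning, and between 9.44% and 10.7% with each plate left out. Detection at 50 reads moved Sox100B to 45.8%, zfh2 to 57.8% and any Hox gene to 18.1%, and detection at 1 read moved any Hox gene to 43.4%. The other alternatives for the shares of sna, exex, zfh2, Sox100B and Hox genes stayed within their intervals. Leaving out each plate gave 76.3 to 81.3% for sna, 53.95 to 61.97% for Sox100B, 48.7 to 52.5% for exex, 70.4 to 75.3% for zfh2 and 23.9 to 32.9% for any Hox gene.

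Of the tested genes, 5.18% were higher in members as reported, 2.17% at a 4-fold limit, 27.99% without the condition on plates, 2.44% against the nearest cells alone, and 5.16 to 7.68% under 7 further alternatives. The lower genes were 19.8% as reported, 30.7% without the condition on plates, 7.55% against the nearest cells, and 14.2 to 26.2% under 8 others. Leaving out plate 17 gave 5.90% and 20.3%. Thinning all cells gave 6.97% higher genes, which held 92.3% of those reported. The 67 members with fewer than 10 reads each of Mhc, apolpp, FASN1 and prc gave 7.68% and 26.2%, chosen after seeing the data, as was thinning for these comparisons. No test, paired or not, was made, since all cells share 1 labelled group. Members and other kept cells were compared on the same plates, through plate means and the direction of each difference. Depth limits genes near 10 reads: 7 members were too shallow to thin.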
